A study of Rattus norvegicus with 6 samples.

Results

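The major histocompatibility complex of the rat, named RT1, and the genes that make and load peptides for it were followed in the tip of the kidney inner medulla (IM), where the collecting ducts end. The members were every row of the deposited expression table whose name begins with RT1-, together with B2m, Cd74, Ciita, Nlrc5, Tap1, Tap2, Tapbp, Psmb8, Psmb9, Psmb10, Psme1, Psme2 and Erap1. They came to 124 of 27321 rows, of which 101 were class I rows, 12 were class II rows and 11 were rows of the other 13 names. Nlrc5 was not analysed here, and Psme1 shares a merged row with Fam158a, which is given beside its partner Psme2 but is no member.

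Class I molecules are a heavy chain paired with beta-2-microglobulin and carry peptides cut by the proteasome in the cytosol to the surface of nearly every nucleated cell, where CD8 T cells and natural killer cells read them. Classical class I genes (RT1-A in the rat) present to T cells, while the many non-classical or class Ib genes (the C/E, N, S, T and M families) vary in expression and in the ligands they hold. Class II molecules are alpha and beta chain pairs that carry peptides from endosomes, are made mainly by dendritic cells, macrophages and B cells, and are read by CD4 T cells. Interferon-gamma is the best known inducer of both pathways, through IRF1 and NLRC5 for class I and through CIITA for class II.

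RNA was sequenced from 3 control and 3 STZ rats. All were male Sprague-Dawley rats of 3 months, an outbred stock whose RT1 haplotypes are not given in the sources used here. The STZ rats received 62.5 mg/kg streptozotocin, a toxin of the pancreatic beta cells that leaves the rat diabetic, and the control rats received the vehicle alone, both into the tail vein. The IM tip was taken 15 days after the injection, so each library is bulk tissue of a single rat, and a lower value cannot be told apart as fewer cells of a type or less RNA per cell.

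Values are normalized counts, that is uniquely mapped reads of a row divided by a size factor of its library. Reads on rows numbered between 3412311 and 5575171 per library, so that 1 normalized count stands for about a read, with a read worth 0.763 to 1.11 of them. Lane 3 of the sequencer held all control libraries and lanes 6, 7 and 8 an STZ library each, and an effect of lane cannot be told apart from that of STZ. A log2 fold change is the mean log2(normalized count + 1) of the STZ rats minus that of the controls, a scale on which low rows change less than they do in counts, and was tested with limma over the 13486 rows with a mean of at least 5. The most counted collecting duct and thin limb markers were abundant, though others of these lists, such as Hsd11b2 and Aqp1, were low. Fxyd4, an ion transport regulator of the collecting duct, lay between 21951 and 46286 normalized counts, and Cryab, a small heat shock protein of the papilla, between 26757 and 42081.

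Near-identical copies are the main limit on RT1 values. RT1 genes resemble each other and differ between haplotypes, reads that map to more than 1 place were left out, and rats of an outbred stock can differ in which copies they carry. Each single RT1 row is therefore uncertain. Of the 101 class I rows, 76 are joined rows whose names string several genes together with commas, and only 25 are rows of a single gene. The joined rows held between 6.15% and 10.6% of the class I normalized counts of a library. How reads were assigned to them is not given in the sources used here.

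Promoters of 39 of the 46 single-gene members could be matched by name in RefSeq, and 6 class I promoters are shown because their genes carry the class I differences below or, for RT1-A2, the classical pattern that the others can be read against. Each is the 250 bases before the start of the gene on GRCr8, a later build than the rn4 of the expression table. The positions are chr20:4872621-4872870 on the plus strand for RT1-A2, chr20:3564091-3564340 on the minus strand for RT1-CE1, chr20:3546518-3546767 on the minus strand for RT1-CE2, chr20:2666239-2666488 on the plus strand for RT1-N3, chr20:2675278-2675527 on the plus strand for RT1-S3 and chr20:2766054-2766303 on the plus strand for RT1-T24-1. Capitals mark matches, on either strand, to the NF-kB element GGGGATTCC (enhancer A of class I genes), the interferon regulatory factor element TTTCACTTC, the interferon-stimulated element GAAANNGAA, the X box core AGCAAC and the Y box CCAAT, the last pair being part of the module that serves class II genes. Where matches overlap, as those of GAAANNGAA in RT1-N3, the capitals run on.
RT1-A2: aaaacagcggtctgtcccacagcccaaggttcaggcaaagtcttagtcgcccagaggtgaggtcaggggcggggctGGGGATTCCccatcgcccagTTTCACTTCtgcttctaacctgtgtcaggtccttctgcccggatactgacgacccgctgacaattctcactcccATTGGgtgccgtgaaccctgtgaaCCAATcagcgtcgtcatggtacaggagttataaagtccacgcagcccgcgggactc
RT1-CE1: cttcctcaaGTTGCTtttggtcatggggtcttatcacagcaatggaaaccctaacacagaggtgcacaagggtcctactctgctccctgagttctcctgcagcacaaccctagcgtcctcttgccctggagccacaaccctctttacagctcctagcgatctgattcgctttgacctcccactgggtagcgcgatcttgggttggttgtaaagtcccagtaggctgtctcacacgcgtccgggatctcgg
RT1-CE2: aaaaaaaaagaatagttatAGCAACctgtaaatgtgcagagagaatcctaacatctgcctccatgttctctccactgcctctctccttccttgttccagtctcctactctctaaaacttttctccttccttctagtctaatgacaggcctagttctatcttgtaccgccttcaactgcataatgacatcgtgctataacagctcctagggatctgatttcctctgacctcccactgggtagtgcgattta
RT1-N3: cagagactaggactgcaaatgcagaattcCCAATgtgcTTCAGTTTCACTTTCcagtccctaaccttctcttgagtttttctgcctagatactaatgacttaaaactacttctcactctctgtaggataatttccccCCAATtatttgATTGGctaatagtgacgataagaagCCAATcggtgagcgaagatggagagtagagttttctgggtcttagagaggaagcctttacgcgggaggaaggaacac
RT1-S3: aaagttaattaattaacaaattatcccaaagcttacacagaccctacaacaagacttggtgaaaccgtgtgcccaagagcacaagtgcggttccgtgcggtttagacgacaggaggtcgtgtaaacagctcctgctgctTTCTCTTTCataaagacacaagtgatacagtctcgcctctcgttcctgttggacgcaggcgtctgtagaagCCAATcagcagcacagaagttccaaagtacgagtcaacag
RT1-T24-1: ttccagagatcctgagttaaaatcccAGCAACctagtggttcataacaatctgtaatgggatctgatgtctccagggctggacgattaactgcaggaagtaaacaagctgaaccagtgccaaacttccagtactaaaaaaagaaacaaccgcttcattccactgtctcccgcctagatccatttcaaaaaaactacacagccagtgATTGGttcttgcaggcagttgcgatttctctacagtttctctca

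RT1-A2 holds both the enhancer A letters and the TTTCACTTC letters, close together, and also the Y box. None of the other 5 sequences holds either of the first pair: RT1-N3 and RT1-S3 hold GAAANNGAA and CCAAT, RT1-T24-1 holds AGCAAC and CCAAT, and RT1-CE1 and RT1-CE2 hold only AGCAAC. Over the 39 matched members, GGGGATTCC was in 5 promoters (RT1-A1, RT1-A2, RT1-CE3, RT1-CE4 and RT1-CE10), against 0.242% of 33469 promoters. TTTCACTTC was in 7 (RT1-A1, RT1-A2, RT1-CE3, RT1-CE5, RT1-CE10, RT1-T18 and Tap2), against 0.382%. GAAANNGAA was in 9, against 8.12%, AGCAAC in 12, against 12.1%, and CCAAT in 24, against 34.0%. In Tap2 the TTTCACTTC and GAAANNGAA matches overlap. A match describes these letters only, and several RT1 promoters are near copies of each other, so they are not independent.

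Among the 47 members that passed the filter of a mean of at least 5, a single row changed between control and STZ rats: RT1-T24-1, a class Ib gene, fell. Across all rows 2.10% were called at an adjusted p under 0.05, with 1.17% higher and 0.927% lower in STZ, and the members' 1 of 47 (2.13%) is near that background. At an unadjusted p under 0.05 there were 8 members of 47 (17.02%), 2 higher and 6 lower, against 14.7% of all rows. The STZ libraries all lay above the controls for 2 members and all below them for 7, against 10.1% and 10.3% of all rows. The median log2 fold change was -0.14 over the tested members and 0.01 over all rows.

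RT1-T24-1 (chr20:2907236-2922971 on rn4) was a low but well-counted gene. In replicate order, which holds for all values below, the controls stood at 94.3, 97.6 and 105 normalized counts and the STZ rats at 42.7, 31.7 and 30.1. The controls lay within a narrow band and every STZ library was far below it, with means of 98.9 ± 5.26 and 34.8 ± 6.87 (SD, n = 3 each). The log2 fold change of -1.49 had an SE of 0.23 and an adjusted p of 0.00867 in limma's test. It was also called by edgeR (adjusted p = 0.0103) and by DESeq2 (0.000169), and with each library left out in turn the adjusted p lay between 0.00897 and 0.0466. Without the intensity trend in limma it was not called (adjusted p = 0.0769).

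Reads given jointly to RT1-T24-1 and a neighbouring predicted gene showed a like difference. This joined row, RT1-T24-1,F1LXB3_RAT, stood at 27.7, 52.6 and 39.0 normalized counts in the controls and at 15.8, 14.8 and 5.02 in the STZ rats, again with no overlap. The difference was -1.75 on the log2 scale (SE 0.44), with an adjusted p of 0.0714. F1LXB3_RAT itself, which is no member and is named because it shares that row, had 59.5, 176 and 100.2 against 46.4, 68.2 and 30.1 normalized counts (log2 fold change -1.14, adjusted p = 0.186), so its groups overlapped.

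The N and S genes near RT1-T24-1 on chromosome 20 leaned the same way without passing the test. RT1-N3, a class Ib gene, had 410.1, 628 and 496 normalized counts in the controls and 288, 297 and 365 in the STZ rats, with every STZ library lower (log2 fold change -0.68, SE 0.21, adjusted p = 0.136). RT1-S3 had 374, 1180.0 and 355 against 235, 289.8 and 273, also with no overlap (log2 fold change -1.02, SE 0.38, adjusted p = 0.227). Control replicate 2 carried much of that difference, and without it the log2 fold change of RT1-S3 was -0.46. RT1-N1 had 94.3, 204 and 148 against 95.6, 53.4 and 16.1 (log2 fold change -1.67, SE 0.52, adjusted p = 0.143). Here STZ replicate 1 matched the lowest control and STZ replicate 3 was lowest of all, and the log2 fold change was -2.23 without the former, when it was called (adjusted p = 0.0379), and -0.98 without the latter.

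RT1-T24-4, of the same family as RT1-T24-1 by name, overlapped between the groups. Its levels were 394, 1489 and 414 normalized counts in the controls and 302, 884 and 525 in the STZ rats (log2 fold change -0.26, SE 0.49, adjusted p = 0.899), and without control replicate 2 the log2 fold change was 0.36. RT1-T18 was low, at 2.05, 12.2 and 18.9 against 2.79, 5.93 and 9.03 (log2 fold change -0.54). RT1-O1 was as low, at 8.20, 9.92 and 5.57 against 4.64, 8.90 and 26.1 (log2 fold change 0.40), where STZ replicate 3 alone stood high. In all, 6 of the 7 single-gene rows of the N, S, T and O families had a negative log2 fold change, with a median of -0.68.

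The other 4 joined rows of these families were low. RT1-N3,RT1-N1 had 6.15, 13.7 and 20.04 normalized counts in the controls and 5.57, 5.93 and 2.01 in the STZ rats, with no overlap (log2 fold change -1.34, adjusted p = 0.346). RT1-T24-1,RT1-T24-4 had 7.18, 11.4 and 4.45 against 6.5, 2.97 and 9.03. RT1-T24-4,F1LXB3_RAT had 18.5, 25.2 and 23.4 against 11.1, 8.90 and 28.1. In both the groups overlapped, and RT1-T24-4,RT1-CE10 did too, at 8.20, 7.63 and 11.1 against 8.36, 10.9 and 24.1.

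**Figure D1:**
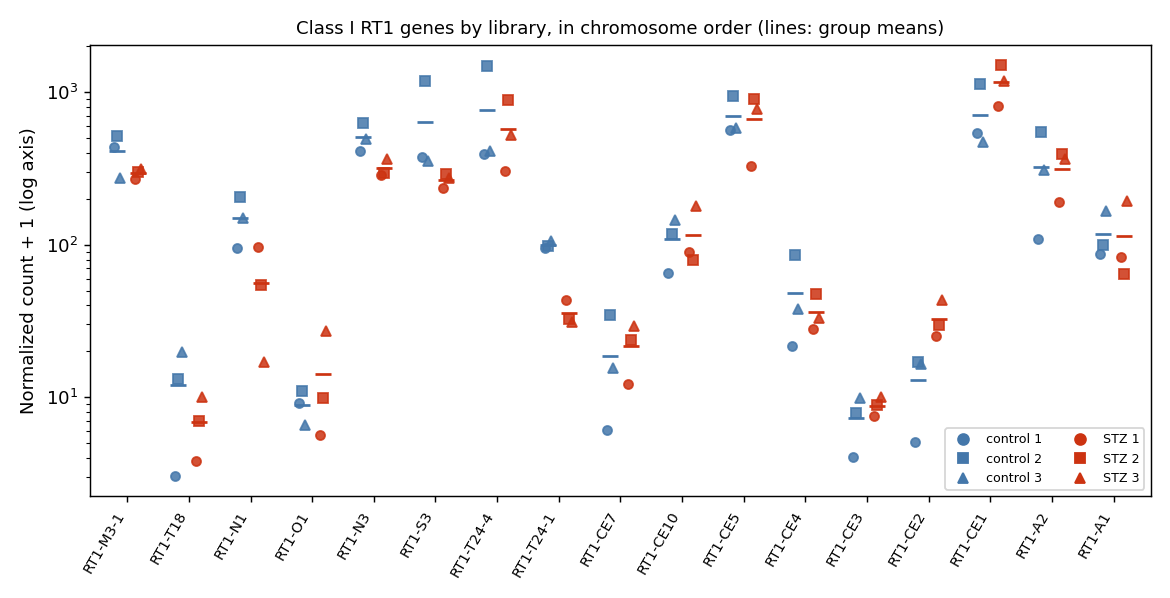
Normalized count + 1 (log axis) of the 17 single-gene class I rows with a mean of at least 5, in chromosome order, with controls in blue and STZ rats in red, a marker shape for each replicate number and short lines at the group means. RT1-T24-1 shows 3 controls between 94.3 and 105 well above STZ libraries between 30.1 and 42.7, while control replicate 2 stands far above the other controls in RT1-S3 and RT1-T24-4.

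The C/E family, a separate block of class I genes, leaned the other way, and no row of it was called. RT1-CE2 was low and higher in every STZ library, at 4.10, 16.0 and 15.6 normalized counts in the controls and 24.1, 28.7 and 42.2 in the STZ rats (log2 fold change 1.49, SE 0.48, adjusted p = 0.158). Without control replicate 1 its log2 fold change was 0.92. RT1-CE1, well expressed, had 536, 1136 and 469.7 against 812, 1505 and 1192 (log2 fold change 0.78, SE 0.33, adjusted p = 0.293). There control replicate 2 lay between the STZ libraries, so the groups overlapped.

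The remaining C/E genes overlapped between the groups. RT1-CE5 had 564, 939.7 and 582 normalized counts in the controls and 328, 902 and 775 in the STZ rats (log2 fold change -0.14). RT1-CE10 had 64.6, 117 and 145 against 89.1, 78.1 and 179.7 (0.07). RT1-CE4 had 20.5, 84.7 and 36.7 against 26.9, 46.5 and 32.1 (-0.22). The last pair was low and just as mixed. RT1-CE7 had 5.13, 33.6 and 14.5 against 11.1, 22.7 and 28.1 (0.45), and RT1-CE3 had 3.08, 6.86 and 8.90 against 6.5, 7.91 and 9.03 (0.36). Of the 7 single-gene C/E rows, 5 had a positive log2 fold change, and the median was 0.36.

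The joined C/E rows that were tested numbered 8, with log2 fold changes from -0.54 to 1.28 and none called. The widest differences were in rows that include RT1-CE1. RT1-CE5,RT1-CE4,RT1-CE1 had 10.3, 80.9 and 15.6 normalized counts in the controls and 24.1, 114 and 74.3 in the STZ rats (log2 fold change 1.28). RT1-CE2,RT1-CE1 had 2.05, 10.7 and 5.57 against 5.57, 23.7 and 19.1 (1.27). RT1-CE4,RT1-CE1 had 12.3, 52.6 and 28.9 against 31.6, 64.3 and 52.2 (0.80). In each of these 3 rows control replicate 2 reached into the STZ range.

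Joined rows with smaller values of this kind overlapped as well. RT1-CE5,RT1-CE1 had 14.4, 48.8 and 18.9 normalized counts against 15.8, 69.2 and 42.2 (log2 fold change 0.58). RT1-CE5,RT1-CE2 had 9.23, 47.3 and 28.9 against 8.36, 47.5 and 51.2 (0.23). RT1-CE5,RT1-CE4 had 30.8, 45.8 and 71.2 against 19.5, 77.1 and 54.2 (-0.09). These rows rest on few reads. RT1-CE5,RT1-CE4,RT1-CE2 had 5.13, 8.39 and 20.04 against 2.79, 11.9 and 7.03 (-0.54), and RT1-CE5,RT1-CE4,RT1-CE3 had 1.03, 29.7 and 0 against 0, 9.89 and 1.004 (-0.50, SE 1.43), most of it in control replicate 2.

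**Figure D2:**
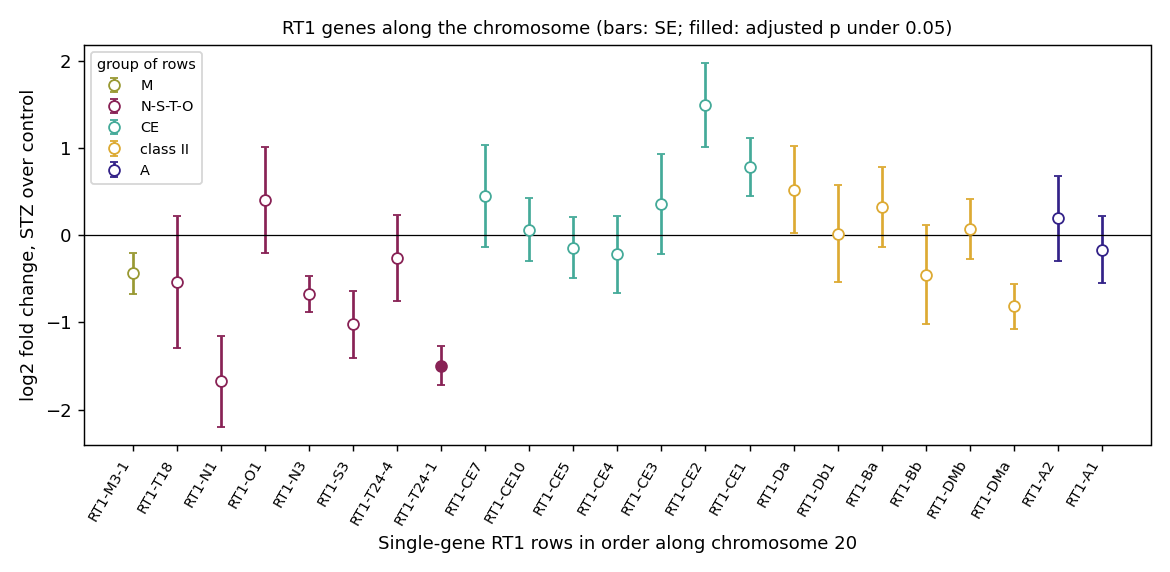
Log2 fold change (STZ over control, with SE bars) of the 23 single-gene RT1 rows in their order along chromosome 20, coloured by family, with the called row filled. The N, S, T and O families run from -1.67 to 0.40, the C/E family from -0.22 to 1.49, and the class II genes from -0.81 to 0.52.

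Set against each other, the 2 blocks separated the groups. All N, S, T and O rows summed to 1448, 3755 and 1658 normalized counts in the controls and to 1033, 1641 and 1340.1 in the STZ rats. All C/E rows summed to 1301, 2695 and 1473 in the controls and to 1427, 3048 and 2599 in the STZ rats. Each sum overlapped between the groups, with control replicate 2 highest in the first. Within a library, however, the ratio of the C/E sum to the N, S, T and O sum was 0.899, 0.718 and 0.888 in the controls and 1.38, 1.86 and 1.94 in the STZ rats. Within each control library the N, S, T and O sum was the larger, and within each STZ library the C/E sum was. Joined rows that mix the blocks, such as RT1-T24-4,RT1-CE10 and RT1-CE7,RT1-O1, were counted whole with the block of their leading name. The blocks were formed with the results known, so the ratio is a description with no test.

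**Figure D3:**
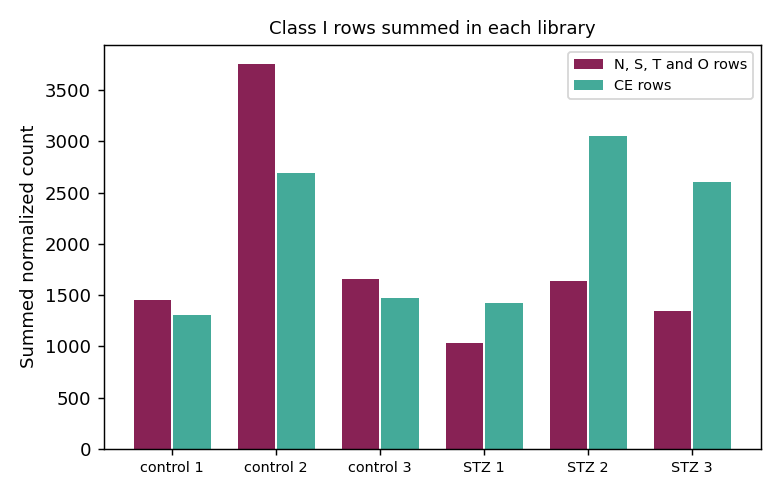
Summed normalized counts of the N, S, T and O rows (purple bars) and of the C/E rows (green bars) in each of the 6 libraries. The purple bar is the taller in all 3 controls and the green bar in all 3 STZ libraries, with ratios from 0.718 to 0.899 and from 1.38 to 1.94.

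The classical genes and the M family gave no call. RT1-A2 had 108, 547 and 306 normalized counts in the controls and 188, 391 and 366 in the STZ rats (log2 fold change 0.19, SE 0.49, adjusted p = 0.929). RT1-A1 had 86.1, 99.2 and 166 against 81.7, 63.3 and 193 (-0.17, SE 0.38). Both showed a wide spread within the groups. The joined row RT1-A1,RT1-A2 had 35.9, 84.7 and 74.6 against 67.8, 60.3 and 80.3 (0.17). RT1-M3-1, whose mouse counterpart presents formylated peptides of bacteria and mitochondria, had 435, 516 and 275 against 267, 299 and 311 (-0.44, SE 0.24, adjusted p = 0.44). Its highest values were in controls, but control replicate 3 lay among the STZ libraries.

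Class I as a whole therefore gave 1 call among 31 tested rows with limma and 1 with edgeR, which called 2.13% of all rows. DESeq2 gave an adjusted p for 19 of the 31 rows and called 5 of them, against 6.63% of all 9035 rows to which it gave one, adding RT1-N1, RT1-N3, RT1-S3 and RT1-T24-1,F1LXB3_RAT. At an unadjusted p under 0.05 in limma there were 7 of 31, against 14.7% of all rows, of which 2 were higher and 5 lower in STZ. Log2 fold changes were positive for 14 rows and negative for 17, with a median of -0.14. The remaining 70 class I rows were under the mean of 5. Of the 8 single-gene rows among them, 4 never exceeded 3 reads, and RT1-M6-2 reached 11 reads, in control replicate 2. Of the 62 joined rows, 51 never exceeded 3 reads, 9 had no read at all, and RT1-CE5,RT1-CE3 reached 15, also in control replicate 2.

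B2m, the common light chain of class I molecules, was the most counted accessory member. It had 5431, 7844 and 5405 normalized counts in the controls and 4005, 4068 and 5136 in the STZ rats, with means of 6227 ± 1400.3 and 4403 ± 635 (SD, n = 3 each). Every STZ library lay below every control, by a small margin between control replicate 3 and STZ replicate 3. The log2 fold change of -0.49 had an SE of 0.23 and an adjusted p of 0.363, and the two-sided exact permutation test gave p = 0.1, the smallest it can give with 3 against 3.

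The transporter and its helpers gave no call. Tap1 and Tap2 form the pump that brings peptides into the endoplasmic reticulum. Tap1 had 13.3, 40.4 and 39.0 normalized counts in the controls and 11.1, 27.7 and 37.1 in the STZ rats (log2 fold change -0.28, SE 0.50). Tap2 had 8.20, 10.7 and 12.2 against 2.79, 5.93 and 12.0 (-0.69, SE 0.57), on few reads. Both pump genes overlapped between the groups, as did tapasin. Tapbp, the gene of tapasin, which bridges the pump and class I, had 116, 157 and 109 against 180.1, 59.3 and 141 (-0.13, SE 0.36). Erap1, the aminopeptidase that trims peptides in the endoplasmic reticulum, was the sole accessory member with every STZ library above the controls, at 249, 264 and 250.4 against 342, 358 and 298 (0.38, SE 0.17, adjusted p = 0.341).

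Interferon exchanges 3 subunits of the proteasome for Psmb8, Psmb9 and Psmb10, and none of these immunoproteasome genes was called. Psmb8 had 87.1, 213 and 84.6 normalized counts in the controls and 89.1, 81.1 and 77.3 in the STZ rats (log2 fold change -0.49, SE 0.32). Its difference lay in control replicate 2, without which the log2 fold change was -0.06. Psmb9 had 297, 462 and 276 against 196, 405 and 239 (-0.33, SE 0.29), and Psmb10 had 402, 477 and 312 against 267, 376 and 253 (-0.41, SE 0.22, adjusted p = 0.445). The subunits they replace had log2 fold changes close to 0. Psmb6 had 2765, 2073 and 2051 against 2252, 2679 and 1969 (0.00, SE 0.21), and Psmb7 had 813, 638 and 571 against 692, 735 and 611 (0.02, SE 0.19). Psmb5, in a row merged with another gene, had a log2 fold change of 0.04. Psme2, a subunit of the proteasome activator PA28, had 1642, 1445 and 1236 against 1481, 1886 and 1392 (0.14, SE 0.20). The merged row of its partner Psme1 and Fam158a had 2797, 2573 and 1927 against 4031, 3776 and 3399 (0.63, SE 0.21, adjusted p = 0.163), and its reads cannot be split between the pair.

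**Figure D4:**
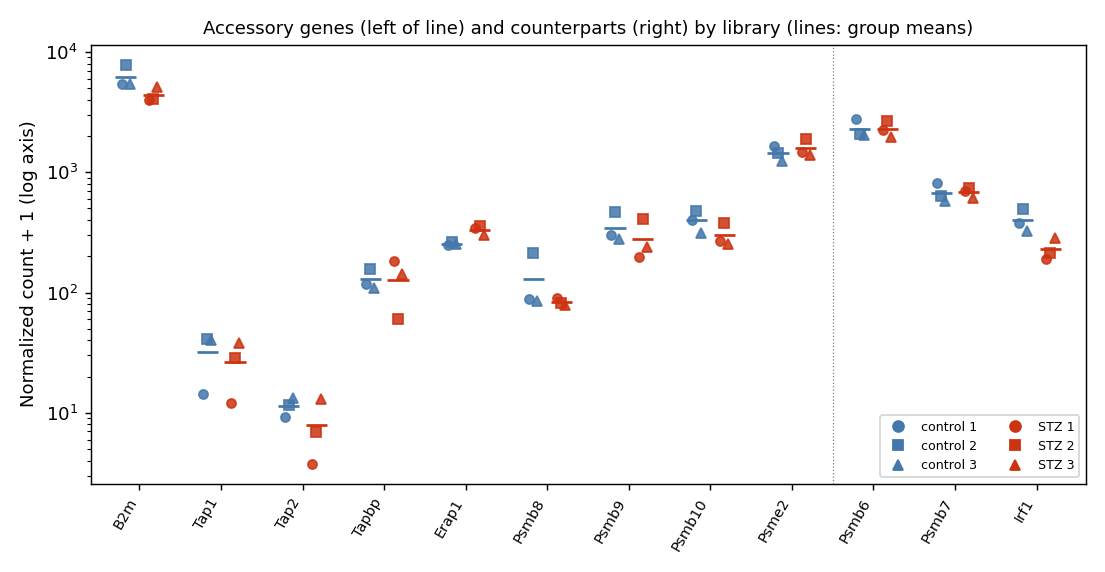
Normalized count + 1 (log axis) of the accessory genes other than Cd74 in each library (left of the dotted line) and of Psmb6, Psmb7 and Irf1 (right of it), controls in blue and STZ rats in red with lines at the group means. Controls lie above STZ rats without overlap for B2m and Irf1 and below them for Erap1.

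Of the 10 accessory members tested, none was called by limma, edgeR or DESeq2. Over the rows to which each gave an adjusted p, they called 2.10%, 2.13% and 6.63%. No accessory member had an unadjusted p under 0.05 in limma, against 14.7% of all rows. The log2 fold changes of the 10 were positive for 3 and negative for 7, with a median of -0.31. For 1 member the STZ libraries all lay above the controls and for 1 all below, against 10.1% and 10.3% of all rows. Ciita, the class II transactivator, had at most 5 reads in a library and was not tested.

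A pair of class II promoters is shown to set RT1-DMa, whose values differed most, beside RT1-Da, a classical alpha chain gene that holds both boxes. They are again the 250 bases before the start on GRCr8, at chr20:4515165-4515414 on the plus strand for RT1-Da and chr20:4712336-4712585 on the minus strand for RT1-DMa, with capitals as above.
RT1-Da: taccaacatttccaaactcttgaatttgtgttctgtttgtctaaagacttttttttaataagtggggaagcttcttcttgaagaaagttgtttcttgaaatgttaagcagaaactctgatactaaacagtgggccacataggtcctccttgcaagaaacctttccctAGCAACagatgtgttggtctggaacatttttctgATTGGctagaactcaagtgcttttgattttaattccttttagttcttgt
RT1-DMa: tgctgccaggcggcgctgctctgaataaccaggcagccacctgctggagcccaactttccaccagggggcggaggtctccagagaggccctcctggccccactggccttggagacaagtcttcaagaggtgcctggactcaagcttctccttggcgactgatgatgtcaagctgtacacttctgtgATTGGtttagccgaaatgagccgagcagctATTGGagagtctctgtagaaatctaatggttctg

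RT1-Da holds AGCAAC upstream of an inverted CCAAT, while RT1-DMa holds CCAAT, inverted, at 2 places and no AGCAAC in this window. That is not particular to RT1-DMa. Of the other tested class II genes with a matched promoter, RT1-Ba and RT1-Bb also hold CCAAT and no AGCAAC, and RT1-Db1 holds both. The values of RT1-Ba, RT1-Bb and RT1-Db1 overlapped between the groups.

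RT1-DMa codes for the alpha chain of DM, the endosomal catalyst that exchanges the invariant chain remnant for peptides on class II. It had 162, 321 and 287 normalized counts in the controls and 121, 159 and 142 in the STZ rats. All STZ libraries lay below the controls, the highest of them just under control replicate 1. The log2 fold change of -0.81 had an SE of 0.26 and an adjusted p of 0.154, so it was not called by limma, nor by edgeR (adjusted p = 0.129), while DESeq2 called it (0.0413). Without control replicate 1 its log2 fold change was -1.12 and it was called (adjusted p = 0.0397).

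The groups overlapped for its partner RT1-DMb, the beta chain of DM, with 29.7, 79.3 and 75.7 normalized counts against 61.3, 63.3 and 54.2 (log2 fold change 0.07, SE 0.34, adjusted p = 0.968). The ratio of RT1-DMa to RT1-DMb was 5.45, 4.05 and 3.79 in the controls and 1.97, 2.52 and 2.61 in the STZ rats, and did not overlap. This ratio was chosen after the values were seen, has no test, and is not scaled for the length of the genes.

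The antigen-presenting chains overlapped between the groups and followed control replicate 1, which was the lowest control in all of them. RT1-Da had 47.2, 255 and 185 normalized counts in the controls and 193, 140.5 and 247 in the STZ rats (log2 fold change 0.52, SE 0.50, adjusted p = 0.729). RT1-Db1, its beta chain partner, had 21.5, 98.4 and 82.4 against 33.4, 46.5 and 117 (0.02, SE 0.56). RT1-Ba, an alpha chain, had 30.8, 147 and 107 against 87.3, 91.0 and 120.5 (0.32, SE 0.46). RT1-Bb, its beta chain, was low, at 8.20, 30.5 and 22.3 against 24.1, 5.93 and 14.1 (-0.45, SE 0.57). Cd74, the invariant chain that guides class II through the cell, was also lowest in control replicate 1. It had 395, 2357 and 1602 against 1178, 2243 and 2358 (0.69, SE 0.54, adjusted p = 0.643). The ratio of RT1-Da to Cd74 was 0.119, 0.108 and 0.115 in the controls. In the STZ rats it spread more widely, at 0.164, 0.0626 and 0.105. Without control replicate 1 the log2 fold change turned negative for RT1-Da (-0.20), RT1-Db1 (-0.65), RT1-Ba (-0.34), RT1-DMb (-0.38) and Cd74 (-0.08).

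Control replicate 1 was also the lowest control in the summed markers of leukocytes, apart from those of B cells. The 12 class II rows summed to 302, 941 and 766 normalized counts in the controls and 522, 509 and 704 in the STZ rats. The 8 pan-leukocyte markers summed to 540.3, 1169 and 1139.8 against 868, 886 and 1137, and the 10 macrophage markers found to 869, 2365 and 1809 against 1426, 1322 and 2133. It was the lowest of the 6 libraries in all 3 sums. No tested marker of either list was called by limma or edgeR, against 2.10% and 2.13% of all rows. Of the 7 and 10 tested, 0 and 1 had an unadjusted p under 0.05 in limma, against 14.7% of all rows. DESeq2, which called 6.63% of the rows with an adjusted p, called Cd14, a macrophage receptor for endotoxin (148, 136 and 135 in STZ against 216, 241 and 223). The pan-leukocyte pair with the highest mean went opposite ways, Lcp1, an actin bundling protein, with a log2 fold change of -0.57 (adjusted p = 0.37) and Fcer1g, an Fc receptor chain, with 0.56 (adjusted p = 0.386). Markers of dendritic cells summed to between 8.20 and 52.3 in the controls and between 11.1 and 62.2 in the STZ rats, with Xcr1 at or under 3 reads in every library. Those of B cells summed to 405, 346 and 455 in the controls, with control replicate 2 lowest, and to between 348 and 368 in the STZ rats. Ms4a1 and Blk were at or under 3 reads throughout. Those of T and NK cells summed to between 85.1 and 197 against between 91.9 and 165. The part of the number of leukocytes in the class II values was not tested.

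**Figure D5:**
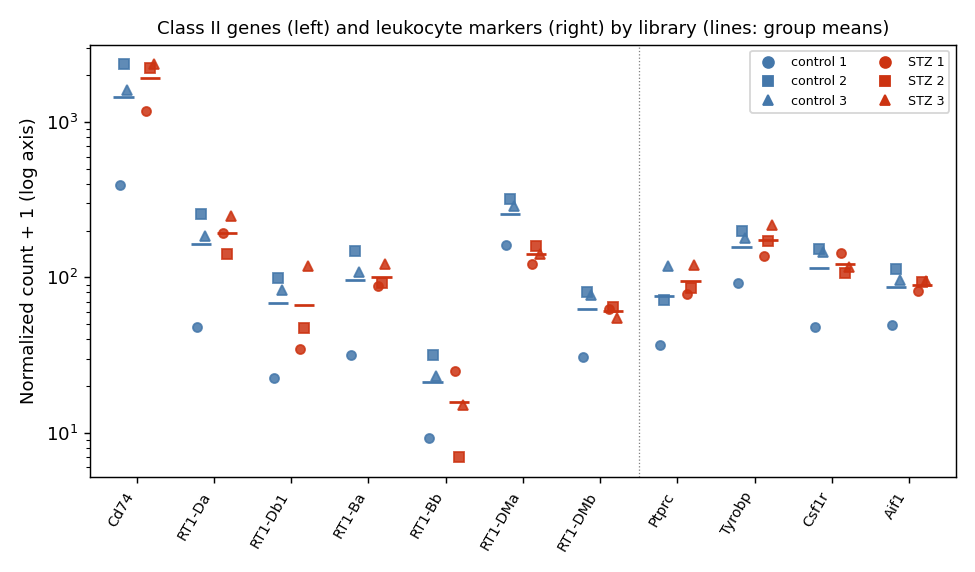
Normalized count + 1 (log axis) of Cd74 and the 6 tested class II genes (left of the dotted line) and of 4 leukocyte markers (right of it) in each library, controls in blue and STZ rats in red with lines at the group means. Control replicate 1 is the lowest control in every column shown, and RT1-DMa is the class II gene whose STZ libraries (121 to 159) all lie under the controls (162 to 321).

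None of the 6 tested class II rows was called by limma or edgeR, against 2.10% and 2.13% of all rows. Of the 6, 1 (RT1-DMa) had an unadjusted p under 0.05 in limma, against 14.7% of all rows. DESeq2 called the same gene among 5 with an adjusted p, against 6.63% of all rows with one. The median log2 fold change was 0.05, positive for 4 and negative for 2. The other 6 class II rows never passed 6 reads. Among them, RT1-DOb, the beta chain of DO, which restrains DM, reached 4 reads, and RT1-DOa, its alpha chain, stayed at or under 3.

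Around the members, some of the genes that interferon induces fell in the STZ rats. Of 15 interferon-stimulated genes tested, 4 fell, against 0.927% of all rows, and none rose. Log2 fold changes were negative for 13 and positive for Mx1 (0.29) and Irf9 (0.24), with a median of -1.11, against 0.01 over all rows. For 9 of the 15 every STZ library lay below the controls, against 10.3% of all rows. The list was chosen with earlier results of these data known, and the study's own table of most changed genes holds Ifit2 and Ifit3. These shares therefore describe the list and are no test of it. Ifit3, which binds viral RNA complexes with Ifit2, had 315, 681 and 362 normalized counts in the controls and 39.0, 107 and 85.3 in the STZ rats (log2 fold change -2.57, SE 0.38, adjusted p = 0.00704). Ifit2 had 298, 659 and 349.5 against 60.4, 99.9 and 118 (-2.18, SE 0.32, adjusted p = 0.00754). Control replicate 2 was the highest library in both, and also in many members of all classes. Among these were RT1-S3, RT1-T24-4, RT1-N1, RT1-N3, RT1-A2, RT1-CE5, B2m, Psmb8, Psmb9, Psmb10, RT1-DMa and RT1-Da. Some members differed: RT1-T24-1, the called one, was highest in control replicate 3, and RT1-CE1 in STZ replicate 2. The list summed to 5286, 12581 and 6632 in the controls and to 2659, 4766 and 3313 in the STZ rats. The antiviral GTPase Mx2 (-1.77, SE 0.40, adjusted p = 0.0489) and the RNA sensor Ddx58 (-0.90, SE 0.20, adjusted p = 0.0449) were each near the threshold: edgeR did not call Mx2 (adjusted p = 0.0514), and each was called in only 1 of the 6 fits that left out a library, with adjusted p up to 0.18 and 0.194. The called pair Ifit2 and Ifit3 kept an adjusted p under 0.05 without any single library, control replicate 2 included. Their part in the class I values was not tested.

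The regulators of class I and II genes were not called. Irf1, the factor through which interferon-gamma acts on class I promoters, had 374, 494 and 321 normalized counts in the controls and 188, 212 and 284 in the STZ rats, with no overlap (log2 fold change -0.79, SE 0.23, adjusted p = 0.112), and DESeq2 called it (0.0284). Rfx5, an X box binding factor, had 47.2, 38.9 and 62.3 against 37.1, 43.5 and 38.1 (-0.29, SE 0.25). Ifngr1, the ligand-binding chain of the interferon-gamma receptor, had a log2 fold change of -0.16. Of the 12 regulators tested, 3 had positive and 9 negative log2 fold changes, with a median of -0.22.

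Relatives of class I and the signals that go with presentation gave 2 calls, in lists chosen with earlier results of these data known. They were 1 of 5 relatives tested and 1 of 4 signals tested, both lower, against 0.927% of all rows. Procr, an endothelial receptor for protein C with a class I fold, fell from 148, 112 and 151 to 69.6, 50.4 and 69.3 normalized counts (log2 fold change -1.11, SE 0.23, adjusted p = 0.0341). It was not called when any single library was left out, with adjusted p from 0.0585 to 0.142. Cd274 (PD-L1), a ligand that restrains T cells and is induced by interferon-gamma, fell from 29.7, 49.6 and 26.7 to 8.36, 2.97 and 12.0 (-2.16, SE 0.48, adjusted p = 0.0469), and in 4 of 6 fits without a library it was not called. Both calls are near the threshold. Cd40, a receptor for T cell help, had a log2 fold change of -0.81 (adjusted p = 0.242), and Cd80 stayed at or under 3 reads.

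The other pathway lists showed no call. These were the loading partners, with Hspa5 and Pdia3 highest (log2 fold changes -0.49 and 0.32), the standard proteasome, with Psmb3 and Psma7 highest (-0.20 and -0.05), and the proteases of class II processing, with Ctsh and Ctsb highest (0.13 and -0.49). Over the 11 lists without a call by limma, markers included, 78 genes were tested, of which 11 had an unadjusted p under 0.05, against 14.7% of all rows, and none was called by edgeR. DESeq2 called 4 of the 62 to which it gave an adjusted p, against 6.63% of all rows (Irf1, Aqp2, Scnn1g and Cd14).

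Some markers of other cells of the IM tip moved too, in lists chosen with earlier results of these data known. Of 6 endothelial markers tested, 2 fell, against 0.927% of all rows, and none rose, with 2 positive and 4 negative log2 fold changes. Emcn, a surface sialomucin, had 6520.1, 5184 and 4827 normalized counts in the controls and 2246, 2003 and 2037 in the STZ rats (log2 fold change -1.38, SE 0.20, adjusted p = 0.00679), and Plvap, of the diaphragms of fenestrae, had 328, 243 and 266 against 148, 119 and 147 (-1.01, SE 0.20, adjusted p = 0.029). The list summed to between 7044 and 9167 in the controls and between 3704 and 4109.7 in the STZ rats, most of the control sum being Emcn, and no marker of it was at or under 3 reads in every library. The other 4 did not move together: Cdh5 (-0.56) and Tek (-0.61) had all STZ libraries below the controls, Tie1 (0.55) had all of them above, and Pecam1 (0.04) overlapped. Over all rows, 10.3% had all STZ libraries below the controls and 10.1% had all of them above. Of the 47 tested members, 7 were among the former, B2m included, and 2 among the latter. Only RT1-T24-1, 1 of the 7, was called by limma. Procr and Cd274 were among the former too. Emcn was called without any single library, Plvap in 1 of 6 such fits. Of 5 urothelial markers, 2 rose, against 1.17% of all rows. They were Upk3a (3.30, adjusted p = 0.000117), which the study's own table of most changed genes holds, and Upk1b (1.25, adjusted p = 0.0489). Upk1b was called in 1 of 6 fits without a library. The list summed to between 85.4 and 132 against between 440.1 and 517. The part of these cells in the class I values was not tested.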

How the data were processed

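RNA of the IM tip of 3 control and 3 STZ rats was sequenced from PCR-amplified cDNA without molecular identifiers, so floors cover counting error only. Per the labels and the study's methods, reads were mapped by the authors with STAR 2.3.1t (genome build rn4), uniquely mapped reads were counted per gene of an Ensembl annotation, and DESeq 1.16.0 normalized them (versions from the submitters' processing notes). Which program counted, and whether it used strand, is not given in the sources used here, so antisense genes may share reads. The deposited signal is each row's count divided by a size factor of its library, called a normalized count here. Dividing by the smallest step of each library gave whole reads for 100.0% of the values (tolerance 0.01 reads). A row at or under 3 reads was taken as at the floor.

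Groups were compared with limma 3.58.1 (R 4.3.3), fitted with an intensity trend to log2(normalized count + 1), over the 13486 rows with a mean of at least 5, with Benjamini-Hochberg adjustment and a threshold of 0.05. DESeq2 1.42.0 and the quasi-likelihood test of edgeR 4.0.16 took the recovered reads as alternatives. The others were a pseudocount of 0.5 or 5, a minimum mean of 1 or 20, no filter, equal library totals, quantile normalization, no trend, robust moderation, a replicate block and each library left out. The main limma fit, edgeR and DESeq2 were also run on simulated reads with known differences, the other alternatives were not, and no outcome is given here. P-values measure the spread between single rats.

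Rows were assigned to class I or II by name. Every member with a mean of at least 5 is named, others where a library exceeds 10 reads, and from each gene list the called genes, otherwise at most the 2 with the highest mean. Irf1, Rfx5, Psmb5, Psmb6 and Psmb7 are named as counterparts of members. Xcr1, Ms4a1, Blk, Cd80, Cd40, RT1-DOa, RT1-DOb, Aqp1, Aqp2, Hsd11b2, Scnn1g, Cdh5, Tek, Tie1, Pecam1, Mx1 and Irf9 were named after their values were seen. The members and gene lists were chosen with earlier results of these data known. Promoters were matched by name in RefSeq GRCr8 and searched on both strands. Python 3.11.15 served for tables (pandas 2.3.3, numpy 2.4.6), exact tests (scipy 1.17.1) and plots (matplotlib 3.10.9). Nlrc5 and list genes without a row were not analysed here, nor were the authors' protein measurements.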

Additional observations from a re-analysis of the deposited data

How the results depend on the processing

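The counts of called members were small and moved with the settings. Class I gave 1 call in the comparison as reported, 3 with no filter on low rows, 0 without the intensity trend and 5 with DESeq2. It gave between 1 and 2 when a library was left out, with 2 without STZ replicate 1 (RT1-T24-1 and RT1-N1). Calls over all rows moved too, from 283 as reported to 413 with no filter, 31 without the trend and 599 with DESeq2. With a library left out they lay between 88 and 352. Class II gave 0 calls as reported, 1 with DESeq2, and between 0 and 1 when a library was left out, with 1 without control replicate 1, each time RT1-DMa. Accessory members gave 0 calls under all 18 alternatives. Over 833 log2 fold changes of members under the alternatives, 821 kept their side of the threshold or had no adjusted p, 1 lost a call and 11 gained one. DESeq2 gave an adjusted p to 19 of 31 class I, 5 of 6 class II and 9 of 10 accessory members, and the rest counted as not called. In 23 members 44 values changed sign, none of them called and the largest of 0.69 in the reported comparison (Cd74). The median over class I ranged from -0.37 to 0.31 and that over class II from -0.52 to 0.37. For rows of few reads the depth of 3412311 to 5575171 reads limits what can be detected.

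The control and STZ rats share replicate numbers in the labels but are different animals. With the number as a replicate block, class I gave 2 calls (RT1-T24-1 and RT1-T24-1,F1LXB3_RAT) and class II gave 1 (RT1-DMa), while calls over all rows went from 283 to 561. Deviations from the group means of same-numbered libraries correlated at 0.395, -0.0612 and 0.323 over 9315 rows, and control replicate 2 correlated best with STZ replicate 1 (0.107), so the numbers were not taken as pairs.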
